A study of Mus musculus with 20 samples.

Results

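Whether macrophages grown with a DOT1L inhibitor respond to LPS differently from control macrophages was read from 14 of the 20 libraries of the series. Macrophages were differentiated from C57BL/6 bone marrow over 7 to 8 days, with 15% L929-conditioned medium as the source of M-CSF. The 4 groups were macrophages grown with 1 µM SGC0946 and then given 10 ng/mL LPS for 3 h (SGC0946+LPS, n = 3), macrophages grown with 1 µM SGC0946 and left unstimulated (SGC0946, n = 4), macrophages grown with DMSO and given the same LPS (DMSO+LPS, n = 3), and macrophages grown with DMSO and left unstimulated (DMSO, n = 4). Replicate numbers name the mouse, per the deposited sample sheet, so that mice 1 to 3 gave all 4 kinds of library and mouse 4 gave the unstimulated ones. No label gives the age or sex of the mice. The other 6 libraries, of cells given the LXR agonist GW3965 (2 µM, 17 h), entered the estimate of the spread between libraries and 2 comparisons named below. The quantity described is the interaction, the LPS response of SGC0946 cells minus the LPS response of DMSO cells on the log2 scale. It was fitted for every gene that passed a filter on low counts, 12013 in all, with no gene chosen by its values.

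DOT1L is the methyltransferase that puts methyl groups on lysine 79 of histone H3 in the body of transcribed genes, and SGC0946 blocks its catalytic site. LPS of Gram-negative bacteria is sensed by TLR4 with CD14 and MD-2, and signals through the adaptors MyD88 and TRIF to NF-kB, MAP kinases and IRF3. In macrophages this starts cytokine and chemokine genes within the first hours, then interferon-stimulated genes through secreted interferon beta, while many genes of resting macrophages are shut down.

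The 14 libraries held 13.94 to 22.92 M counts over all transcripts and 8.17 to 13.33 M in the table of 1 transcript per gene. Summed CPM (counts scaled to library size with TMM factors) of the 10 macrophage markers was 16900 to 20900 in SGC0946+LPS, 13300 to 17800 in SGC0946, 20200 to 21300 in DMSO+LPS and 15800 to 17400 in DMSO cells. That of the 6 erythroid markers was at most 0.716 in any of the 14. Dot1l itself was at 62.2, 49.2 and 56.9 CPM in SGC0946+LPS, 53.8, 44.9, 64.7 and 44.1 CPM in SGC0946, 69.8, 64.6 and 69.7 CPM in DMSO+LPS and 64.2, 57.5, 56.6 and 55.7 CPM in DMSO cells. SGC0946 acts on the enzyme, so the Dot1l transcript does not check the labels. DMSO replicates 1 to 3 and all GW3965-treated DMSO libraries carry the word reanalyzed in their titles, and no LPS or SGC0946 library does. The effect of what that word stands for on the DMSO response cannot be told apart from LPS except through DMSO replicate 4. In the GW3965-treated cells it cannot be told apart from SGC0946.

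The responses to LPS in the inhibitor-grown and the control macrophages were close to each other over the whole transcriptome. In the main fit, which does not pair libraries by mouse, 1 gene, Lcn2, departed past the threshold. In 2 fits with terms for the mouse, given below, 6 and 21 genes did. LPS changed 8962 genes in SGC0946 cells (74.6% of those tested), with 4296 higher (35.8%) and 4666 lower (38.8%), and 8903 in DMSO cells (74.1%), with 4253 higher (35.4%) and 4650 lower (38.7%). Calls are at an adjusted p under 0.05 (edgeR quasi-likelihood F test, Benjamini-Hochberg). Of these, 8229 were called in both arms, which is 91.8% of the calls in SGC0946 cells and 92.4% of those in DMSO cells. The direction was the same for 8223 of the 8229. Across genes, the responses had a Pearson r of 0.972 and a Spearman rho of 0.966, with a total least squares slope of 1.013 for SGC0946 over DMSO. Genes are not independent replicates, so these values describe the libraries. Leaving out the 43 genes with a group at 0 counts, r was 0.976 and the slope 1.018. Within mice 1, 2 and 3, r was 0.952, 0.950 and 0.945 and the slope 1.029, 1.07 and 1.002.

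The overall size of the response, by amplitude and slope, was close in both arms. Regressed on the mean response of both arms, the amplitude of the LPS response was 1.008, 1.034 and 1.004 in SGC0946 cells of mice 1 to 3, against 0.979, 0.970 and 1.006 in DMSO cells. That mean is taken over these same responses, so the amplitudes of the 2 arms average 1 by construction. In mouse 3 the order by amplitude was the other way round, while the slope of SGC0946 over DMSO was above 1 in all 3 mice. The mean response of both arms passed for 81.8% of genes, 38.4% higher and 43.4% lower. Of 1930 genes so induced by 2-fold or more, 1077 (55.8%) had the larger induction in SGC0946 cells, with a median interaction of 0.03. Among 2197 genes so repressed by 2-fold or more, 1060 (48.3%) had the shallower repression in SGC0946 cells, with a median interaction of -0.02. Over all genes the median interaction was 0.002 and 50.4% were positive. At an unadjusted p under 0.05 (edgeR quasi-likelihood F test), 137 of the induced genes had a larger and 76 a smaller induction in SGC0946 cells. Of the repressed genes, 120 had a deeper and 55 a shallower repression there at that threshold. Among all genes, 3.25% had a higher and 3.7% a lower interaction at it. Genes are not independent, and this lean was not tested.

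**Figure D1:**
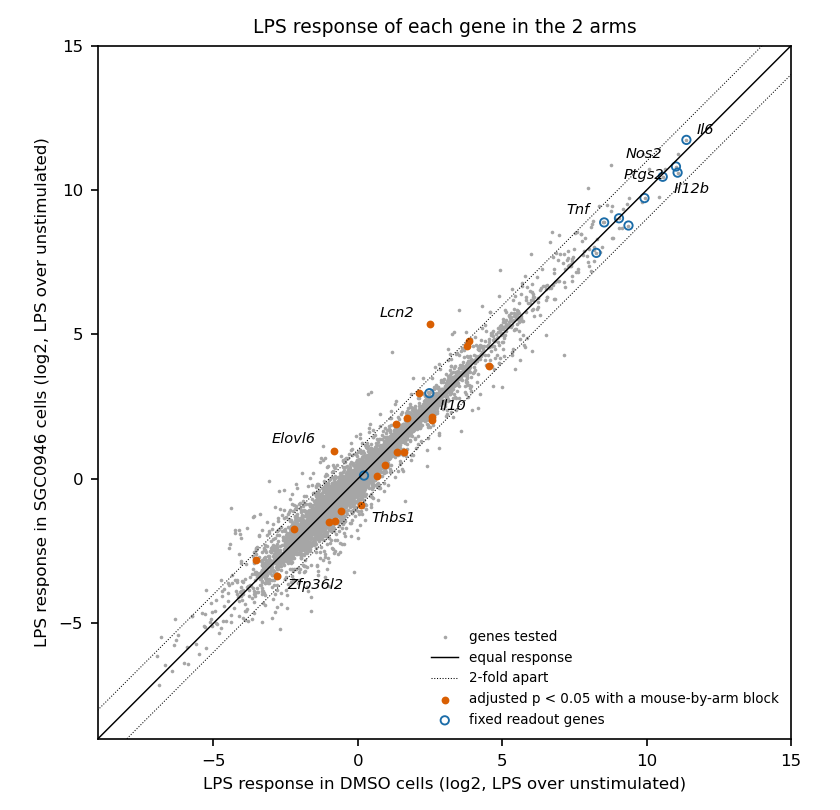
Each point is 1 of 11970 genes, with the log2 LPS response in SGC0946 cells (vertical) against that in DMSO cells (horizontal); the solid line is an equal response and dotted lines mark a 2-fold difference. The cytokine genes lie along the line up to a response above 11, Lcn2 lies above it, and the 43 genes with a group at 0 counts are not drawn.

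How small a departure the data could have missed varied between genes. The 95% interval of the interaction lay within 2-fold in either direction for 9539 genes (79.4%) and within 1.5-fold for 7284 (60.6%). Among the 4127 genes that LPS moved by 2-fold or more, it lay within 2-fold for 2701 (65.5%). The median SE of the interaction was 0.159. For the remaining genes the interval reached beyond 2-fold, or none could be given.

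The interaction passed for 1 gene of 12013 (0.00832%), higher in SGC0946 cells. In this fit, with 1 mean per group and no block, edgeR called no gene lower, while 445 genes (3.7%) were lower at an unadjusted p under 0.05, beside 390 (3.25%) higher, 835 (6.95%) in all. DESeq2 called 13 higher and 21 lower, and limma-voom called 1 higher and 0 lower. Since numbers name mice, 2 fits with a block for the mouse stand beside the main one. With 1 term per mouse 6 genes passed (0.0499%), 3 higher and 3 lower (0.025% each). With 1 term per mouse and arm 21 passed (0.175%), 9 higher (0.0749%) and 12 lower (0.0999%). The second fit compares each LPS library with the unstimulated library of its own mouse and inhibitor treatment, and leaves mouse 4 without weight. Fold changes are given below with 1 SE, and adjusted p is always the Benjamini-Hochberg value over all 12013 genes from the edgeR quasi-likelihood F test.

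Lcn2 encodes lipocalin 2, a secreted protein that binds bacterial siderophores and is made by neutrophils and by LPS-stimulated macrophages. It stood at 8.91, 13.6 and 11.3 CPM in SGC0946+LPS cells and 0.174, 0.298, 0.181 and 0.356 CPM in SGC0946 cells, against 16.9, 17.8 and 19 CPM in DMSO+LPS cells and 2.18, 3.12, 3.66 and 3.68 CPM in DMSO cells. Every SGC0946 library was below every DMSO library of the same state, by far the most in unstimulated cells. The unstimulated SGC0946 values rest on 2, 4, 2 and 5 counts. The LPS response was 5.38 ± 0.25 in SGC0946 cells and 2.49 ± 0.16 in DMSO cells, and the interaction was 2.89 ± 0.345 (95% interval 2.17 to 3.61; adjusted p = 0.000395). This is a 7.4-fold larger induction, towards a level that remained lower: SGC0946 against DMSO cells differed by -0.67 ± 0.16 after LPS (adjusted p = 0.0127) and by -3.55 ± 0.28 without it (adjusted p = 1.67e-07). In the GW3965-treated cells, which share no library with the 14, the difference was -3.12 ± 0.31 (adjusted p = 3.87e-06). There every DMSO library and no SGC0946 library is titled reanalyzed. The interaction was positive in 3 of 3 mice, and passed with the mouse block (adjusted p = 0.000108) and the block per mouse and arm (adjusted p = 0.000615). Over all alternatives it lay between 2.72 and 3.18, and it was 3.10 with DMSO replicate 4 as the only unstimulated DMSO library (adjusted p = 0.00189). With mice 1 and 3 alone it was 3.11 and did not pass (adjusted p = 0.0837).

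Lcn2 is also 1 of 12 neutrophil markers, of which 5 passed the count filter. Summed CPM of the other 11 was 7.08 to 7.46 in SGC0946+LPS and 1.91 to 7.91 in SGC0946 cells, against 38.2 to 46.6 in DMSO+LPS and 29.8 to 38.8 in DMSO cells. In these bulk libraries fewer cells of a type and less RNA per cell cannot be told apart. Elane, Mpo, Prtn3, Retnlg, Ly6g and Cxcr2 stayed under 1 CPM in all 14 libraries. S100a9, a calcium-binding protein of neutrophil cytosol, was at 3.05, 2.29 and 3.59 CPM in SGC0946+LPS, 0.521, 1.42, 0.812 and 2.28 CPM in SGC0946, 13.6, 12.9 and 19.4 CPM in DMSO+LPS and 10.4, 10.6, 14.6 and 11.8 CPM in DMSO cells. Its arms did not overlap in either state. The interactions of S100a8, S100a9, Ngp and Ltf were 0.60 ± 0.52, 0.79 ± 0.43, 0.11 ± 0.505 and -0.69 ± 0.64, and none passed (adjusted p = 0.775 to 1). The part of the neutrophil markers in the Lcn2 result was not tested.

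The promoter of Lcn2 is shown with that of Acod1, the itaconate-producing enzyme, whose LPS responses in the arms were 9.02 ± 0.20 and 9.04 ± 0.20. Both windows run from 250 bases before to 50 after the start (RefSeq, GRCm38.p6), with matches to the NF-kB pattern in capitals. The pattern is GGGA or GGGG, then any 4 bases, then CC, on either strand. The Lcn2 window (chr2:32387690-32387989, minus strand) holds 1 match, 102 bases before the start, and the Acod1 window (chr14:103046762-103047061, plus strand) holds 1, 55 bases before it.
Lcn2: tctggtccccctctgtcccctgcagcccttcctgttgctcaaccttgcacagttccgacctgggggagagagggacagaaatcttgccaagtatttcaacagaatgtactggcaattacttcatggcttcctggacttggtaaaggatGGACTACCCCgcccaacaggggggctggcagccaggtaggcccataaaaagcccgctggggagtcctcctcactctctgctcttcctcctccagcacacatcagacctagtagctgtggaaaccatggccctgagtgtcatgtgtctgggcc
Acod1: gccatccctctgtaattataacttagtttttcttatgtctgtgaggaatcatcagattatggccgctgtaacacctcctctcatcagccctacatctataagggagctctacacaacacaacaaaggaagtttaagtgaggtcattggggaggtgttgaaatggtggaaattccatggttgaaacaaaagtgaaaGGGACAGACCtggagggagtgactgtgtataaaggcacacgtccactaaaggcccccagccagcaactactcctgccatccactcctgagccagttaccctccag
Of 9644 tested genes with a window, 42.2% hold such a match, so a match is no mark of these genes. Among genes with an unadjusted p under 0.05, 40.8% of 306 windows with a higher and 42.6% of 364 with a lower interaction hold one. The interferon response element, GAAA, any 2 bases and GAAA again on either strand, was in 3.35% of all windows, 4.58% of the higher and 1.37% of the lower ones (14 and 5 windows). The AP-1 site TGACTCA, or TGAGTCA on the other strand, was in 3.66%, 3.92% and 3.85%.

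The 10 genes with the smallest p in each direction show what the departures below the threshold look like. Their interactions were 0.27 to 2.89 in size, with a median of 0.58, and apart from Lcn2 their adjusted p was 0.0809 to 0.175. All 20 had 1 sign in the 3 mice, against 29.6% of all genes, and all 20 had arms that did not overlap after LPS, against 23.6%. Without LPS the arms did not overlap for 8, against 16.1% of all genes. The genes were chosen on the same libraries, so nothing is read from these counts. Between the arms, 15 passed only after LPS, 3 only without LPS, 1 in both states and 1 in neither. Of all genes, 7.13% passed after LPS (3.86% higher and 3.26% lower) and 8.72% without it (4.55% higher and 4.18% lower). In GW3965-treated cells 2 of the 20 passed, Lcn2 and Gypc, against 3.64% of all genes.

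**Figure D2:**
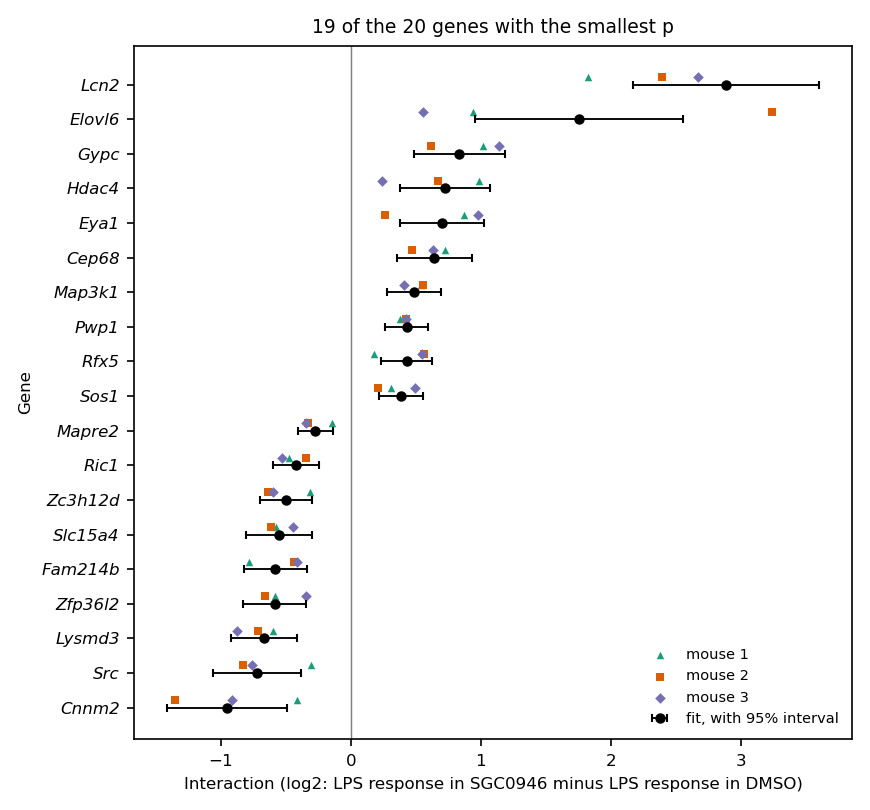
Interaction in log2 (horizontal) of 19 of the 20 genes, as the fitted value with its 95% interval and as the value within each of mice 1 to 3. Every gene drawn keeps 1 sign in the 3 mice, Elovl6 spreads most widely (0.94, 3.24 and 0.55), and mouse values use a prior count that draws low genes such as Lcn2 towards 0.

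Among the 10 with a lower interaction, 9 were lower in SGC0946 than in DMSO cells after LPS and did not pass between the unstimulated arms. Zfp36l2, a zinc finger protein that binds AU-rich mRNA and speeds its decay, was at 25.9, 28.1 and 27 CPM in SGC0946+LPS and 276, 302, 243 and 294 CPM in SGC0946 cells, against 40.5, 37.8 and 36.1 CPM in DMSO+LPS and 287, 256, 256 and 250 CPM in DMSO cells. LPS shut it down in both arms, and the LPS libraries of the arms did not overlap. The repression was -3.37 ± 0.09 in SGC0946 cells and -2.78 ± 0.08 in DMSO cells, an interaction of -0.59 ± 0.115 (adjusted p = 0.0907; 0.0435 with the mouse block; 0.0127 with the block per mouse and arm).

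Slc15a4, the histidine and peptide transporter of endolysosomes that TLR7 and TLR9 signalling needs, was at 36.7, 38.2 and 31.4 CPM in SGC0946+LPS and 74.6, 81, 72.7 and 80.8 CPM in SGC0946 cells, against 62.3, 56.0 and 48.8 CPM in DMSO+LPS and 84.8, 77.4, 82.9 and 84.9 CPM in DMSO cells. It fell with LPS in both arms, by 1.12 ± 0.09 in SGC0946 cells and by 0.56 ± 0.08 in DMSO cells. The interaction of -0.55 ± 0.12 did not pass (adjusted p = 0.153), and passed with both blocks (0.0435 and 0.0172).

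Of the others, 6 followed the same order. Lysmd3 fell to 10.6, 11.2 and 9.22 CPM in SGC0946+LPS cells against 28.7, 28.5, 30.6 and 26.9 CPM in SGC0946 cells, and to 16.6, 17.3 and 15.2 CPM in DMSO+LPS cells against 29.6, 26.7, 27.3 and 30 CPM in DMSO cells (interaction -0.67 ± 0.12; adjusted p = 0.0809; 0.0332 with the block per mouse and arm). Zc3h12d, a CCCH zinc finger protein of the regnase family, had an interaction of -0.50 ± 0.10 (adjusted p = 0.0907; 0.0332 with the block per mouse and arm). Ric1, part of the exchange factor for the Golgi GTPase Rab6, was induced less in SGC0946 cells, to 105, 118 and 105 CPM against 159, 156 and 170 CPM in DMSO+LPS cells (interaction -0.42 ± 0.08; adjusted p = 0.0907; 0.0152 with the block per mouse and arm). Fam214b (-0.58 ± 0.12), Cnnm2, linked to magnesium transport (-0.95 ± 0.22), and Mapre2, a microtubule end-binding protein (-0.27 ± 0.06), did not pass in any of these 3 fits.

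Higher interactions after LPS were of 2 shapes, a larger induction and a shallower repression. Pwp1, a protein of ribosome biogenesis, reached 140, 131 and 133 CPM in SGC0946+LPS against 28.2, 24.3, 26.4 and 25.4 CPM in SGC0946 cells, and 104, 105 and 101 CPM in DMSO+LPS against 27.3, 26.3, 26.8 and 27.4 CPM in DMSO cells. The LPS libraries of the arms did not overlap and the unstimulated ones did. Its interaction was 0.43 ± 0.08 (adjusted p = 0.0809; 0.0568 and 0.0713 with the blocks). Sos1, an exchange factor of Ras, was induced to 107, 101 and 113 CPM in SGC0946+LPS and 86.3, 85.3 and 80.7 CPM in DMSO+LPS cells (interaction 0.39 ± 0.08; adjusted p = 0.148).

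Map3k1, a kinase upstream of JNK, was at 53.7, 51.8 and 59.1 CPM in SGC0946+LPS and 171, 187, 184 and 184 CPM in SGC0946 cells, against 35.9, 32 and 42.6 CPM in DMSO+LPS and 167, 169, 176 and 170 CPM in DMSO cells. It fell in both arms and less in the inhibitor arm, whose LPS libraries were all above those of DMSO. The interaction was 0.49 ± 0.10 (adjusted p = 0.0907), and passed with the block per mouse and arm (0.0332) but not with the mouse block (0.0568). Eya1, a phosphatase and transcriptional coactivator, showed the same shape, at 15, 14 and 17.1 CPM in SGC0946+LPS and 6.41, 10.3 and 8.03 CPM in DMSO+LPS cells (interaction 0.70 ± 0.155; adjusted p = 0.153; 0.0437 with the block per mouse and arm). Cep68, of the centrosome (0.64 ± 0.14), Hdac4, a class IIa histone deacetylase (0.73 ± 0.17), and Rfx5, a subunit of the complex at MHC class II promoters (0.43 ± 0.10), did not pass in any of the 3 fits. Hdac4 and Rfx5 share 22.4% and 26.8% of their exon bases with another annotated gene, so their counts are uncertain.

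**Figure D3:**
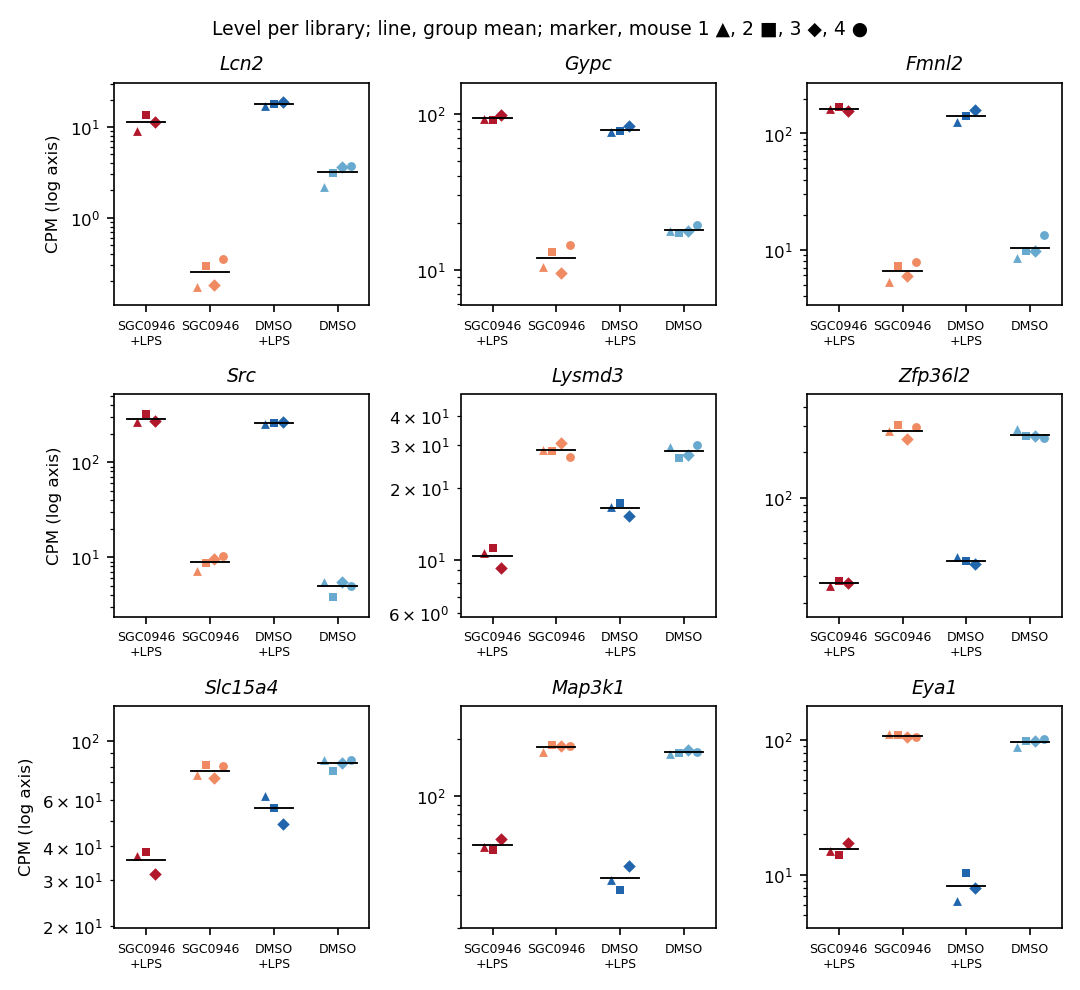
CPM on a log axis for 9 genes in each of the 14 libraries, by group from SGC0946+LPS to DMSO, with a marker per mouse and a line at the group mean. Between the arms, Gypc, Fmnl2 and Src passed without LPS, Lysmd3, Zfp36l2, Slc15a4, Map3k1 and Eya1 passed after it, and Lcn2 in both states.

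A second kind of departure came from genes whose levels differed between the arms before LPS and lay close together after it. Gypc, the membrane protein glycophorin C, was at 91.9, 90.4 and 98.2 CPM in SGC0946+LPS and 10.4, 13, 9.48 and 14.5 CPM in SGC0946 cells, against 76.7, 77.6 and 82.9 CPM in DMSO+LPS and 17.7, 17.2, 17.8 and 19.5 CPM in DMSO cells. The arms did not overlap in either state, with SGC0946 above DMSO after LPS and below it before. The arms differed by 0.24 ± 0.12 after LPS (adjusted p = 0.248) and by -0.60 ± 0.12 without it (adjusted p = 0.00335). In GW3965-treated cells the difference was -0.56 ± 0.15 (adjusted p = 0.0391). The interaction was 0.84 ± 0.17 (adjusted p = 0.0907), and passed with both blocks (0.0288 and 0.00898). Src, a tyrosine kinase that LPS induced strongly in both arms, was at 267, 323 and 273 CPM in SGC0946+LPS and 7.21, 8.64, 9.66 and 10.3 CPM in SGC0946 cells, against 252, 257 and 266 CPM in DMSO+LPS and 5.45, 3.78, 5.49 and 5.03 CPM in DMSO cells. Its interaction of -0.72 ± 0.16 did not pass (adjusted p = 0.164; 0.0876 and 0.141 with the blocks).

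Elovl6, an elongase of long-chain fatty acids, was at 11.7, 16 and 11.3 CPM in SGC0946+LPS and 8.42, 4.17, 8.85 and 5.92 CPM in SGC0946 cells, against 8.05, 5.22 and 9.83 CPM in DMSO+LPS and 11.2, 13.6, 11.4 and 16.7 CPM in DMSO cells. It rose with LPS by 0.95 ± 0.27 in SGC0946 cells (adjusted p = 0.00318) and fell by 0.81 ± 0.27 in DMSO cells (adjusted p = 0.0114). The interaction was 1.76 ± 0.38 (adjusted p = 0.15; 0.0568 with the mouse block; 0.0485 with the block per mouse and arm). Mouse 2 carried much of it: with the block per mouse and arm and without mouse 2 the value was 0.76 (adjusted p = 0.385). Besides Elovl6, 5 genes were called in opposite directions by LPS, Hltf, Map4k3, Ssrp1, Tmigd3 and Ube4b. For Hltf, Map4k3 and Ube4b the response was -0.21, -0.29 and -0.11 in SGC0946 cells and 0.18, 0.18 and 0.15 in DMSO cells, and for Ssrp1, a subunit of the histone chaperone FACT, it was 0.15 and -0.13. Tmigd3, at 1.83, 2.04 and 1.37 CPM in SGC0946+LPS and 0.682, 0.213 and 0.415 CPM in DMSO+LPS cells, shares 33.9% of its exon bases with Adora3, and Ube4b shares 10.6% of its own. None of the 6 passed the interaction test in the main fit (adjusted p = 0.15 to 0.237).

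The block per mouse and arm called 10 genes outside the 20, of which 9 are named here, after their values were seen. Fmnl2, an actin-nucleating formin, was at 163, 170 and 156 CPM in SGC0946+LPS and 5.3, 7.23, 5.87 and 7.84 CPM in SGC0946 cells, against 126, 142 and 159 CPM in DMSO+LPS and 8.39, 9.81, 9.63 and 13.4 CPM in DMSO cells. The unstimulated arms did not overlap, with SGC0946 below DMSO, and the LPS libraries did. The interaction was 0.83 ± 0.20 (adjusted p = 0.175; 0.0288 with the mouse block; 0.0332 with the block per mouse and arm). Gnb4, a G protein beta subunit, was the reverse, at 14.3, 14.5, 16.7 and 16.4 CPM in SGC0946 and 6.04, 9.88, 5.73 and 9.53 CPM in DMSO cells before LPS (interaction -0.66 ± 0.165; adjusted p = 0.175; 0.0344 with the block per mouse and arm). In GW3965-treated cells Gnb4 also differed between the arms, by 0.86 ± 0.155 (adjusted p = 0.00236).

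Of the other 7, Coro2a, an actin-binding protein found with the NCoR corepressor, Tnfrsf1b, the second TNF receptor, Prdm1, the repressor Blimp-1, Hk2, hexokinase 2, and Thbs1, thrombospondin 1, had lower interactions (-0.47, -0.45, -0.67, -0.53 and -1.03). Exoc3l4 and Slc7a7, a carrier of cationic amino acids, had higher ones (0.93 and 0.57). Thbs1 was at 108, 250, 111 and 241 CPM in SGC0946 against 86.7, 102, 89.9 and 72.2 CPM in DMSO cells, so that mice 2 and 4 stood high in the inhibitor arm alone. After LPS it was at 68.5, 138 and 77.2 CPM in SGC0946+LPS and 72.4, 96.2 and 118 CPM in DMSO+LPS cells, which overlapped. Exoc3l4 shares 15.7% of its exon bases with another gene.

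The secreted ligands among the readout genes were induced by LPS in both arms, and none passed the interaction test. For Il1b, Il6, Il10 and Il12b the interval reached beyond 2-fold, so a departure of that size could have been missed. Tnf was at 2440, 2530 and 2240 CPM in SGC0946+LPS and 4.69, 3.5, 7.94 and 4.56 CPM in SGC0946 cells, against 2670, 2760 and 2550 CPM in DMSO+LPS and 6.29, 7.03, 7.24 and 8.18 CPM in DMSO cells. Its LPS libraries did not overlap between the arms, with SGC0946 lower, and its unstimulated ones did. The interaction was 0.35 ± 0.22 (95% interval -0.12 to 0.82; adjusted p = 0.830). Il1b reached 984, 742 and 1150 CPM in SGC0946+LPS against 849, 833 and 857 CPM in DMSO+LPS cells. Its interaction was -0.60 ± 0.40 (-1.44 to 0.24), while within mice 1 to 3 it was 0.401, -1.452 and 0.589. Without LPS Il1b was at 1.3, 2.68, 1.26 and 3.21 CPM in SGC0946 and 1.51, 0.994, 1.43 and 1.2 CPM in DMSO cells. Il6, at 473, 353 and 516 CPM in SGC0946+LPS and 353, 406 and 384 CPM in DMSO+LPS cells, had an interval of -2.0 to 2.72, since its unstimulated levels were between 0 and 0.285 CPM.

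Il12b, a subunit of IL-12 and IL-23, was higher in SGC0946 than in DMSO cells of the same mouse, both after LPS and without it. It was at 289, 975 and 296 CPM in SGC0946+LPS and 159, 583 and 156 CPM in DMSO+LPS cells, so that mouse 2 was highest in both. Without LPS it was at 0.174, 0.298, 0.451 and 0.499 CPM in SGC0946 and 0.0839, 0.133, 0.239 and 0.3 CPM in DMSO cells. The arms overlapped in both states, and neither difference passed in the fit without a block (0.79 ± 0.395 after LPS, adjusted p = 0.255; 0.89 ± 2.73 without it, adjusted p = 0.882). In that fit its interaction had an interval of -5.93 to 5.74, which bounds no fold of use. Within mice 1 to 3 the interaction of Il12b was 0.44, 0.131 and 0.332, and with the block per mouse and arm -0.185. The unstimulated libraries of these mice held 1 to 5 counts of it. Ifnb1, the interferon gene, was at 6.83, 6.37 and 8.54 CPM in SGC0946+LPS and 7.37, 7.67 and 9.27 CPM in DMSO+LPS cells, and had no count in 3 of 4 SGC0946 and 4 of 4 DMSO libraries, so no fold is given. Il10, an anti-inflammatory cytokine, had an interaction of 0.49 ± 0.45 (-0.44 to 1.42), Cxcl10 one of -0.20 ± 0.28 (-0.78 to 0.38) and Ccl5 one of -0.43 ± 0.21 (-0.865 to 0.001). Of the enzymes, Nos2, the inducible nitric oxide synthase, had -0.20 ± 0.44 (-1.125 to 0.725), Ptgs2, which makes prostaglandin H2, -0.47 ± 0.49 (-1.49 to 0.55), and Acod1 -0.02 ± 0.22 (-0.48 to 0.44). Within mice 1 to 3 the interaction of Nos2 was positive (0.514, 0.201 and 0.694), and with the block per mouse and arm it was 0.524. Unstimulated SGC0946 cells held Nos2 at 0.782, 0.596, 0.361 and 2.07 CPM, the last from mouse 4, which has no LPS library. Dot1l had -0.10 ± 0.20 (-0.52 to 0.32). None of these 11 passed (adjusted p = 0.718 to 1), and for 5 of them the interval lay within 2-fold.

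**Figure D4:**
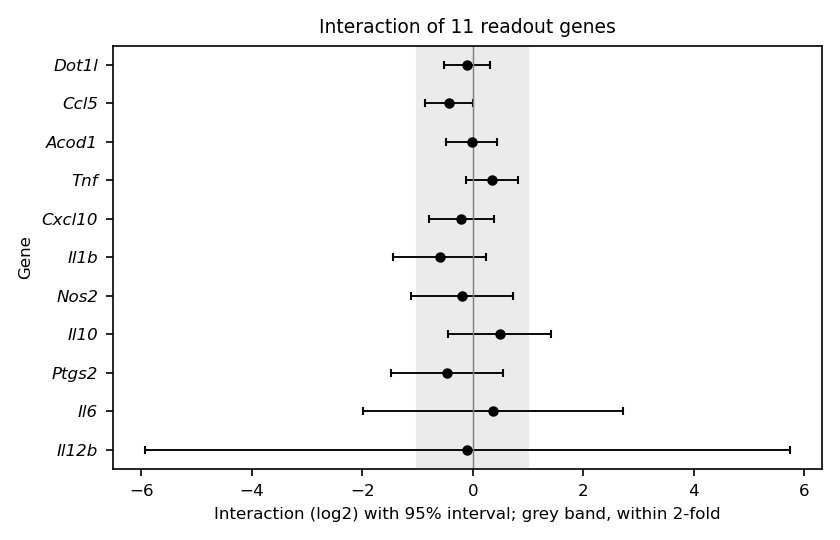
Interaction in log2 with its 95% interval for the 11 readout genes that had counts in every group; the grey band is a difference within 2-fold. The intervals of Dot1l, Ccl5, Acod1, Tnf and Cxcl10 lie inside the band, and those of Il6 and Il12b extend far beyond it.

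Over 19 lists of LPS-related and metabolic genes no member passed the interaction test in the fit without a block or with the mouse block. With the block per mouse and arm, Hk2 of glycolysis and Thbs1 of matrix remodelling passed (adjusted p = 0.0437 for both). Of their 356 tested members, 33 (9.27%) had an unadjusted p under 0.05, 13 higher and 20 lower, beside 6.95% of all genes, and for 291 (81.7%) the interval lay within 2-fold, beside 79.4%. The medians that follow leave out genes with a group at 0 counts, and the median of all genes was 0.002. Primary-response cytokines and chemokines, 10 of 11 induced in each arm, had a median interaction of -0.20, and secondary-response ones, 16 of 16 induced in each arm, one of 0.09. Cxcl16, a chemokine that is also a scavenger receptor, was the secondary-response gene with the smallest p (-0.39 ± 0.16; adjusted p = 0.588), and 18.3% of its exon bases are shared with Zmynd15.

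Receptors and adaptors of the TLR4 pathway had a median of -0.01 over 18 genes. Ticam1, which encodes the adaptor TRIF, was at 32.6, 26.9 and 27.7 CPM in SGC0946+LPS and 37.6, 40.5, 38.6 and 34.4 CPM in SGC0946 cells, against 39.7, 37.6 and 40.4 CPM in DMSO+LPS and 40.3, 35.8, 37.2 and 34.2 CPM in DMSO cells. It fell by 0.37 ± 0.08 with LPS in SGC0946 cells (adjusted p = 0.000355), while its response in DMSO cells was 0.09 ± 0.08 (adjusted p = 0.317). The interaction was -0.46 ± 0.115 (adjusted p = 0.175; 0.0772 and 0.078 with the blocks). NF-kB subunits and inhibitors had a median of -0.03 over 13 genes, all 13 with an interval within 2-fold, with Ikbkg, the IKK gamma subunit, at -0.26 ± 0.09. Negative feedback regulators had a median of -0.09 over 20 genes, with Rgs2, a brake on G protein signals, at -0.47 ± 0.15, and immediate early factors -0.14 over 19. Fosb, an immediate early factor, had a group at 0 counts and is given no fold (adjusted p = 0.648).

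Interferon-stimulated genes leaned towards a larger induction in SGC0946 cells, with no member past any threshold. All 35 tested were induced in both arms, and 29 had a positive interaction, beside 50.4% of all genes. At an unadjusted p under 0.05 there were 0, beside 6.95% of all genes. The median was 0.185, and 0.32 with the block per mouse and arm. The lean was not shared by the mice: the list median was 0.10 in mouse 1, 0.82 in mouse 2 and -0.18 in mouse 3. Of the 35 genes 5 kept 1 sign in the 3 mice, against 29.6% of all genes. Isg20, an RNA exonuclease, had the smallest p of the list (0.45 ± 0.27; adjusted p = 0.806). Among interferon signalling factors, with a median near 0, Irf4 was at 3.29, 2.04 and 3.42 CPM in SGC0946+LPS and 8.08, 7.68, 7.31 and 6.70 CPM in SGC0946 cells, against 1.23, 1.17 and 0.83 CPM in DMSO+LPS and 6.21, 6.43, 7.16 and 6.00 CPM in DMSO cells. Its LPS libraries did not overlap between the arms, with SGC0946 higher. The interaction of 1.19 ± 0.29 did not pass in any of the 3 fits (adjusted p = 0.175, 0.148 and 0.212).

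Cell cycle genes had the highest median of these lists, 0.205 over 23 genes, 21 of them positive, beside 50.4% of all genes. Of the 23 genes 4 kept 1 sign in the 3 mice, against 29.6% of all genes. The median was 0.10 with the block per mouse and arm. Here too mouse 2 was highest, at 0.31, against -0.04 in mouse 1 and 0.06 in mouse 3, and Ccnd2, cyclin D2, had an interaction of 0.44 ± 0.19 (adjusted p = 0.671). Glucose uptake and glycolysis had a median of -0.09, and 4 of 22 genes were lower and 1 higher at an unadjusted p under 0.05, beside 3.7% and 3.25% of all genes. Those lower were Pfkl, of phosphofructokinase (-0.34), Slc2a1, the glucose transporter GLUT1 (-0.52), Hk2 (-0.53) and Eno1, enolase 1 (-0.26), and Pfkp (0.25) was higher; apart from Pfkl they are named for these values.

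The other lists lay close to 0. Cholesterol biosynthesis had a median difference between the arms of -0.58 after LPS and -0.56 without it, and a median interaction of -0.02 over 26 genes, with 25 intervals within 2-fold. Insig2, which retains the SREBP complex, had -0.33 ± 0.13 (adjusted p = 0.555). MHC class II and costimulation genes had medians of 0.565 after LPS and 0.37 without it, and a median interaction of 0.02, with the costimulatory ligand Cd80 at 0.25 ± 0.105. LXR targets had -0.07 (Npc1, of lysosomal cholesterol export, -0.14 ± 0.06), and the DOT1L complex and elongation partners -0.03, with 16 of 16 intervals within 2-fold (Ell, of the super elongation complex, 0.30 ± 0.13). Scavenger receptors had 0.03 (Stab1 -0.26 ± 0.14), growth factor and homing receptors -0.13 (P2ry6, a UDP receptor, -0.31 ± 0.11), inflammasome and cell death genes 0.15 (Mcl1, a survival factor, -0.32 ± 0.095), matrix remodelling 0.05 and prostaglandin, nitric oxide and itaconate genes -0.07 (Ptger2, a receptor of prostaglandin E2, 0.44 ± 0.21).

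Markers of cell types were looked at in the same way. Macrophage markers had a median interaction of -0.11 over 10 genes. Dendritic cell markers had -0.515 over 5, with Dpp4 at -1.25 ± 0.65 (adjusted p = 0.732). Few markers of B, T and NK, mast and stromal cells were tested (2, 2, 1 and 2), and no erythroid one was.

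**Figure D5:**
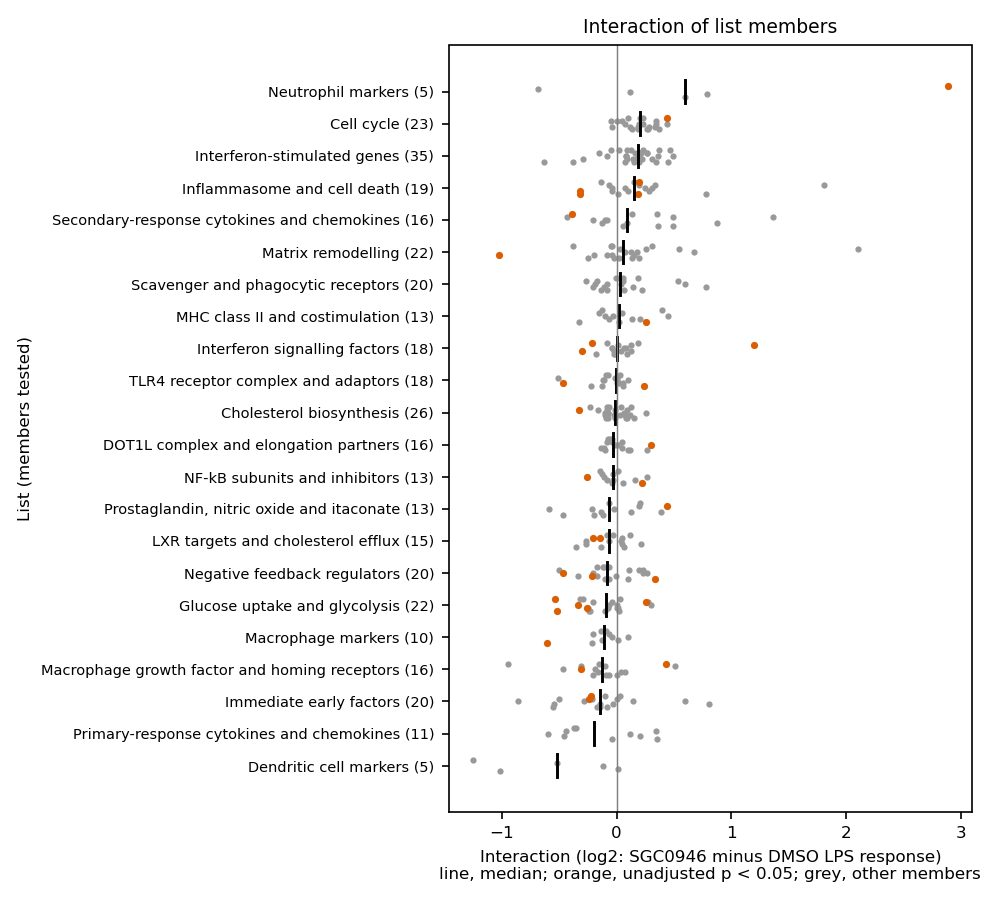
Interaction in log2 of each tested member (points) of the 22 lists with 3 or more tested members, with the list median as a line; orange points have an unadjusted p under 0.05. Most points lie within 1 of 0, and Lcn2, among the neutrophil markers, stands alone near 2.9.

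Genes that SGC0946 changed in the GW3965-treated cells allow the arms to be compared on genes chosen outside the 14 libraries, though in the same mice. This set was chosen after results were seen. Of 269 genes higher with SGC0946 there (2.24% of those tested), the median difference between the arms was 0.769 after LPS and 0.825 without it, and the median interaction was -0.07. At an unadjusted p under 0.05, 29 (10.8%) had a lower and 1 (0.372%) a higher interaction, beside 3.7% and 3.25% of all genes. Of 168 genes lower with SGC0946 there (1.4%), the median difference was -0.305 after LPS and -0.357 without it, with a median interaction of 0.05. Here 23 (13.7%) had a higher and 7 (4.17%) a lower interaction. In both sets the difference between the arms was on balance nearer to 0 after LPS. The sets were chosen in cells without LPS, from a comparison in which every DMSO library is titled reanalyzed. Among the unstimulated DMSO libraries replicates 1 to 3 are so titled, and after LPS none is. The part of the choice and of the titles in this balance was not tested.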

How the data were processed

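The authors deposited raw read counts per RefSeq transcript for 20 libraries and the RPKM of the same transcripts. The RPKM values were used only in an alternative choice of transcript. Per the labels' protocols, KAPA mRNA HyperPrep libraries from 700 ng of RNA were read as 50 bp single ends, and per the submitters' processing notes STAR 2.5.2b, SAMtools 1.3.1 and the mm10 build were used. Counter, annotation and strand setting are not stated, so reads of overlapping genes cannot be told apart (exon overlaps: GENCODE annotation of GRCm38).

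Of 35745 transcripts 35440 were joined to symbols of the RefSeq table for GRCm38.p6. The 305 unnamed ones held 1.17% of counts and were left out. For 6035 of 24342 symbols with several transcripts the one with the highest total count was kept, which left 57.3% of all counts. The test was the quasi-likelihood F test of edgeR 4.0.16 in R 4.3.3. All 20 libraries entered, each group had its own mean, and TMM scaling (factors 0.686 to 0.716 in the LPS and 1.16 to 1.19 in the unstimulated libraries) and filterByExpr at a count minimum of 10 were used, with Benjamini-Hochberg adjustment over 12013 genes. The biological coefficient of variation was 8.87%. The SE is the size of the log2 contrast divided by the square root of F, and intervals use the fit's degrees of freedom. They are not given for the 43 genes with a group at 0 counts. Mouse values are differences of log2 CPM. The procedure was tested on simulated counts.

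Same-numbered libraries come from the same mouse, per the deposited sample sheet, and their deviations from group means correlated at 0.0608 to 0.396. Libraries within groups differed by a chi-square of 3.09 to 10.9 per gene, more than sampling noise. In SGC0946 cells it was 6.07 between mice 1 and 3, 5.12 between mice 2 and 4, and 7.84 to 10.9 between the other pairs. In SGC0946+LPS cells it was 4.33 between mice 1 and 3, and 9.9 and 10.6 for pairs with mouse 2. It was 3.09 to 6.08 in DMSO and 4.29 to 4.96 in DMSO+LPS cells. Mouse 4 has no LPS library, and the part of this pattern in the interaction was not tested. Nothing in the labels says that animals were pooled or litters shared.

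Genes are named by this rule: the 10 with the smallest interaction p in each direction, the called member or else the member with the smallest p of each list with 3 or more tested members, and 12 fixed readouts. A few genes that the rule names are not reported here. The comparison, the lists and the rule were chosen with earlier results of these data known. Alternatives were other scalings, filters, tests (DESeq2 1.42.0, limma 3.58.1), transcript choices, blocks and libraries left out.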

Additional observations from a re-analysis of the deposited data

Results flagged for a closer look

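Lcn2 is listed because its LPS response differed between the arms by a test of the difference itself (interaction 2.89; edgeR quasi-likelihood adjusted p = 0.000395; 3 of 3 mice positive). Among the named genes, 134 groups of 4 unstimulated libraries were examined for 1 library far from the other 3, and 8 were found, 4 in SGC0946 and 4 in DMSO cells. Chance gives about 1 in 20. In SGC0946 cells Cxcl10 was at 19.5 CPM in replicate 4, against 8.12 to 9.55 CPM in the other 3, and its interaction without that library was 0.19 in place of -0.20. Ell was at 38.8 CPM in replicate 4 and 37.8 to 37.9 CPM in the others, and Mapre2 at 133 CPM in replicate 1 and 139 CPM in the others. Ifnb1 had 0.149 CPM in replicate 2, from 2 counts, and 0 in the others. In DMSO cells Ric1 was at 64.3 CPM in replicate 4, the library whose title lacks the word reanalyzed, against 61.7 to 62.2 CPM. In replicate 2 P2ry6 was at 167 CPM, against 176 CPM, and Ssrp1 at 103 CPM, against 109 to 110 CPM. Zfp36l2 was at 287 CPM in replicate 1, against 250 to 256 CPM.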

How the results depend on the processing

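The Lcn2 interaction lay between 2.72 and 3.18 in every alternative run and failed the threshold with mice 1 and 3 only. Calls were 4 higher and 7 lower with no filter on low counts, 13 and 21 with DESeq2, 2 and 0 with limma-voom weighted per arm (Lcn2 and Gypc), and 0 and 1 (Gnb4) with mice 1 and 3 only. Because numbers pair libraries by mouse, a replicate block was fitted, which called 3 higher and 3 lower. A replicate block within arm called 9 and 12, or 5 and 10 on the 14 libraries alone, an alternative chosen after seeing the data. Leaving out 1 library or 1 mouse gave 1 to 5 higher and 0 to 6 lower, and without SGC0946+LPS replicate 2 alone it was 5 and 6. A second gene passed without DMSO+LPS replicate 3 (Map3k1), SGC0946+LPS replicate 1 or 3 (Sh3gl1 without replicate 3), or SGC0946 replicate 3 (Zfp36l2). With the replicate block within arm, leaving out mouse 1, 2 or 3 gave 1 and 0, 3 and 4, and 4 and 3. The other scalings, the stricter filter, limma-voom, the 14 libraries alone, the other transcript choice, equal depth and unstimulated groups without reanalyzed libraries or without mouse 4 kept 1 and 0. With the unstimulated reanalyzed libraries left out, DMSO replicate 4 stands alone and is assumed to vary like the other groups. The correlation of the responses across genes was 0.782 with no filter, 0.989 with the stricter one and 0.953 without reanalyzed libraries. For readouts and markers that did not pass, the sign turned under some alternatives, and the cause was not tested. The interaction of Nos2 was 0.073 with limma-voom, 0.072 with weights per arm, 0.156 at equal depth, 0.524 with the block within arm (0.522 on 14 libraries), 0.52 with mice 1 to 3 and 0.667 with mice 1 and 3. The interaction of Acod1 was 0.093 with the block within arm (0.088 on 14 libraries) and with mice 1 to 3, and 0.04 with mice 1 and 3. The interaction of Cxcl10 was 0.084 with the block within arm, 0.062 without reanalyzed libraries and 0.092 with mice 1 to 3. Without reanalyzed libraries the interaction of Il12b was 0.541 and the interaction of Ptgs2 0.363. With mice 1 and 3 the interaction of Il12b was 0.009, the interaction of Il1b 0.511 and the interaction of Tnf -0.059. With 1 library left out, the interaction of Acod1 lay between -0.107 and 0.09, the interaction of Cxcl10 between -0.346 and 0.193, the interaction of Dot1l between -0.186 and 0.022, the interaction of Il12b between -0.932 and 0.839, the interaction of Il6 between -0.055 and 1.332, the interaction of Ngp between -0.21 and 0.757 and the interaction of Nos2 between -0.44 and 0.56. With the replicate block within arm and without mouse 1, 2 or 3, Acod1 was 0.215, 0.035 and 0.016 and Nos2 0.504, 0.67 and 0.421. In that fit Cxcl10 was 0.064 without mouse 1 and 0.28 without mouse 3. Without mouse 2, Il12b was 0.007, Il1b 0.508 and Tnf -0.053, and without mouse 3, Dot1l was 0.026, Ptgs2 0.149 and the interaction of Ltf 0.624. Among the readouts, Il6 and Il12b had the widest intervals, and their unstimulated levels were under 1 CPM.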

Other observations

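By size, the interaction was 1.5-fold or more in either direction for 939 of the 12013 genes, and 2-fold or more for 332. Of the latter, 3 are given here. They were picked after their values were seen. Gfra1, a receptor of glial cell line-derived neurotrophic factor, averaged 5.71 ± 0.869 CPM in SGC0946+LPS cells (SD, n = 3) and 0.266 ± 0.137 CPM in SGC0946 cells (n = 4), against 0.715 ± 0.48 CPM in DMSO+LPS and 0.310 ± 0.121 CPM in DMSO cells. Of these groups only SGC0946+LPS averaged above 1 CPM. The interaction of Gfra1 was 3.20 ± 0.80 (95% interval 1.54 to 4.86, edgeR quasi-likelihood adjusted p = 0.175), and DESeq2 called it. It was positive in 3 of 3 mice, and 29.6% of all genes had 1 sign in the 3 mice. The 3 genes were chosen on these same libraries, so nothing is read from their signs or DESeq2 calls. Lck, a T cell kinase and 1 of 2 tested T and NK cell markers, averaged 37.6 ± 3.18 CPM in SGC0946+LPS and 0.256 ± 0.254 CPM in SGC0946 cells, against 19.9 ± 2.66 CPM in DMSO+LPS and 0.619 ± 0.419 CPM in DMSO cells. Its interaction was 2.29 ± 0.62 (adjusted p = 0.214), with values of 1.16, 3.44 and 1.05 in mice 1 to 3, and DESeq2 called it as well. Cd3d, Cd3e, Cd3g, Cd8a, Nkg7, Klrb1c, Gzma and Prf1 stayed under 1 CPM in all 14 libraries. Bambi, a pseudoreceptor of the TGF-beta family, averaged 3.87 ± 0.635 CPM in SGC0946+LPS and 3.66 ± 1.15 CPM in SGC0946 cells, against 4.13 ± 0.88 CPM in DMSO+LPS and 9.20 ± 1.03 CPM in DMSO cells, an interaction of 1.24 ± 0.30 (adjusted p = 0.175).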
